A study of Enchytraeus crypticus with 54 samples.

Results

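The 3 arrays of *Enchytraeus crypticus* kept for 7 days in soil with copper nanoparticles at the EC50 (Cu-NPs EC50) are described here against the 3 arrays of worms kept for 7 days in control soil (Control). They were chosen by the sample titles, as 6 of the 54 arrays of the series. *E. crypticus* is a small white worm of the soil, an oligochaete used in standard toxicity tests, and the EC50 is the concentration that lowers reproduction by 50%. The series measured 4 forms of copper (nanoparticles, nanowires, the salt CuNO3 and soil of a field with aged contamination) at the EC20 and the EC50, after 3 and 7 days, with 18 groups of 3 arrays. Every group was kept in soil from the same site, and the controls came from its clean area. A further 4 groups set the measurements in context, namely Cu-NPs EC50 and Control at 3 days, and Cu-NPs EC20 and CuNO3 EC50 at 7 days. Each array held RNA from the whole bodies of 1 pool of 20 adults, so that fewer cells of a type and less RNA per cell cannot be told apart. The labels call the 3 pools of a group biological replicates.

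Copper is an essential metal, a cofactor of enzymes of respiration and of the defence against oxidants. In excess it catalyses the formation of reactive oxygen and displaces other metals from proteins. Invertebrates respond with metal-binding proteins, with transporters that carry copper out of the cell or into vesicles, and with antioxidant enzymes and chaperones. In worms the gut epithelium and the chloragogenous tissue around it are known sites of metal storage. A nanoparticle can act through the ions it releases and through uptake of the particle itself, which is why a soluble salt is tested beside it. The files named the probes by contigs and sequencing reads and did not pair them with genes, so no transcript could be assigned to any of these roles.

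Of 43750 probes, 19499 (44.6%) gave a signal above background on all 54 arrays, and for brevity such a probe is termed a gene. The level of a gene is the log2 of its processed intensity after Median normalization, which gives every array the same median. A log2 change is the mean level in one group minus that in the other, and a gene was called when its adjusted p-value, from limma with Benjamini-Hochberg adjustment, was under 0.05. In the Cu-NPs EC50 arrays 54.4%, 66.5% and 49.4% of all non-control probes were well above background, against 59.7%, 54.6% and 46.9% in the Control arrays (exact permutation test, two-sided, p = 0.7, smallest possible 0.1). Correlations between the arrays of a group over genes were 0.94 to 0.98 for Cu-NPs EC50 and 0.90 to 0.98 for Control. Replicate 3 differed most from the rest of its group in both groups. In it, 19.4% of genes of the Cu-NPs EC50 array and 27.9% of genes of the Control array differed by over 1 log2 from the mean of the other 2 arrays. In Control replicate 2 this share was 18.2%. Before normalization the median signal of the genes was 47.5 in Control replicate 3, against 114 and 115 in the other Control arrays. In Cu-NPs EC50 replicate 3 it was 104. Cu-NPs EC50 replicates 1 and 2 were scanned later than the first scan of their slides, as were 6 other arrays of the series, whereas replicate 3 and the 3 Control arrays were not.

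After 7 days of Cu-NPs EC50, 8 genes were called (0.041% of those tested), of which 7 were higher (0.0359%) and 1 was lower (0.00513%) than in Control. At an unadjusted p-value under 0.05 there were 1793 genes, 735 higher and 1058 lower. The values of the groups did not overlap for 1861 genes (9.54%), with 740 higher (3.8%) and 1121 lower (5.75%). The 5th and 95th percentiles of the log2 changes were -0.89 and 0.83. Changes of over 1 log2 were found upwards in 566 genes and downwards in 706, so that most large changes did not pass the test. Without Cu-NPs EC50 replicate 3 the number of calls was 264, the 8 included, and without any other single array of the 6 it was 1 to 3. With the slide as a fixed block limma called 0 genes, and with a term for the later scans it called 4, 3 of them among the 8.

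**Figure D1:**
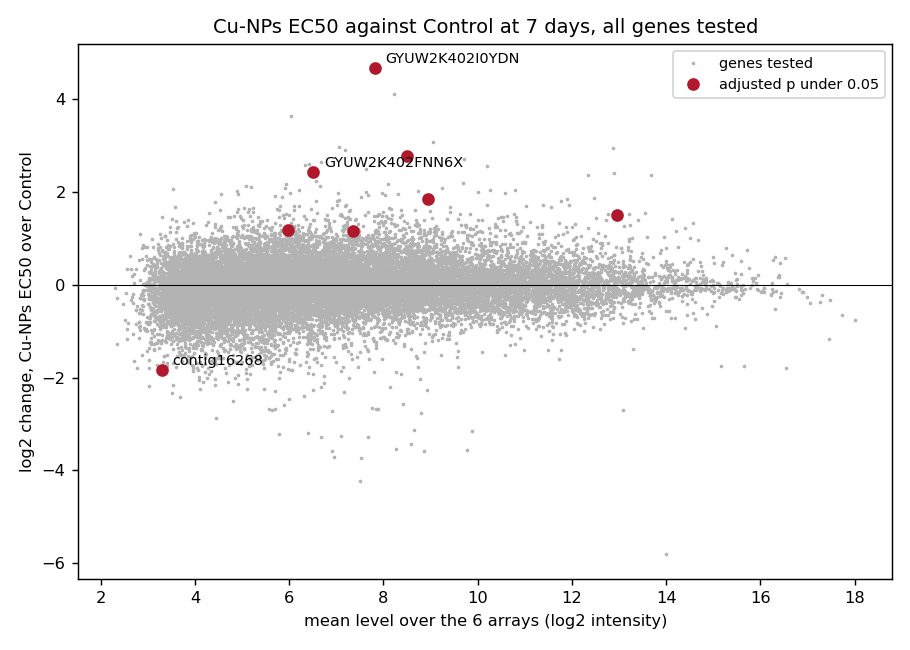
Log2 change of Cu-NPs EC50 over Control at 7 days (vertical axis) against the mean level of the gene over the 6 arrays (horizontal axis, log2 intensity). Grey points are the 19499 genes and red points the 8 called ones. The gene with the largest decrease, at -5.81, was not called.

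The largest increase was that of GYUW2K402I0YDN. Its level was 10.03, 9.94 and 10.48 in the Cu-NPs EC50 pools, against 6.69, 5.33 and 4.44 in the Control pools. The exposed pools lay close together and far above every control pool, and the spread was larger in Control. The log2 change was 4.67 ± 0.72 (SE, n = 3 each), which is 25.4-fold with a 95% confidence interval of 9.27 to 69.7 (limma, adjusted p = 0.0019). Cu-NPs EC50 at 7 days had the highest mean of the 18 groups, with Cu-NWires EC50 at 3 days next and overlapping it, and Control at 7 days had the lowest. The gene was chosen for its difference between Cu-NPs EC50 and Control, so that these ranks were favoured in advance. The other treatments at 7 days share the 3 Control arrays, so that a further call against them is not independent. The gene was also called higher in Cu-NWires EC20 at 7 days (log2 change 4.05, adjusted p = 0.016 by limma). Against the Control at 3 days it was called higher in Cu-NPs EC50 (2.86, adjusted p = 0.0062), in Cu-NWires EC50 (3.81, adjusted p = 0.0033), in Cu-Field EC50 (2.96, adjusted p = 0.031) and in Cu-NWires EC20 (2.22, adjusted p = 0.038).

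The increase of GYUW2K402FNN6X was unevenly divided among the pools. Its level was 8.06, 8.66 and 6.47 in the Cu-NPs EC50 pools, against 5.26, 5.29 and 5.34 in the Control pools. The third exposed pool lay much nearer to the controls than the other 2, although still above them, and the controls were nearly equal. The log2 change was 2.43 ± 0.42 (5.39-fold, 95% confidence interval 2.99 to 9.71, limma adjusted p = 0.0092). It was the highest group of the 18 for this gene too.

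The other 5 genes that rose changed by 2.25- to 6.83-fold, with adjusted p-values of 0.012 to 0.037 by limma. The one of the largest change, a contig of the design, was at 9.77, 9.95 and 9.91 in the Cu-NPs EC50 pools, against 7.65, 7.15 and 6.51 in the Control pools. The brightest, with a mean level above 98.1% of genes in the exposed pools, was at 13.89, 14.34 and 12.91 there, against 12.11, 12.15 and 12.38 in Control. In 4 of these 5 genes replicate 3 was the exposed pool nearest to the controls. Among the 8 called genes 3 (37.5%) were read names, against 53.1% of all genes tested.

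The gene that fell, contig16268, was dim. Its level was 2.55, 2.30 and 2.27 in the Cu-NPs EC50 pools, against 4.19, 4.25 and 4.22 in the Control pools. Before normalization its intensities were 7.84, 5.57 and 5.64 in the Cu-NPs EC50 pools, against 23.3, 24.5 and 9.89 in the Control pools. The nearly equal Control levels thus rest on the scaling of the arrays. The gene was not well above background on any exposed array, and it was on 2 of the 3 controls. The level in the exposed worms is therefore a bound. With the exposed group set at the lowest signal well above background, the decrease was 2.55-fold (limma, adjusted p = 0.035 on the measured levels). This is not a minimum, since the Control mean includes an array that was not well above background. Over the settings run the log2 change of contig16268 was -1.94 to -0.37. The next decrease by the test, contig23839, did not pass it. It was at 6.37, 6.32 and 6.99 in the Cu-NPs EC50 pools and at 7.85, 7.67 and 8.64 in the Control pools, without overlap, with a log2 change of -1.49 ± 0.34 (adjusted p = 0.088 by limma).

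**Figure D2:**
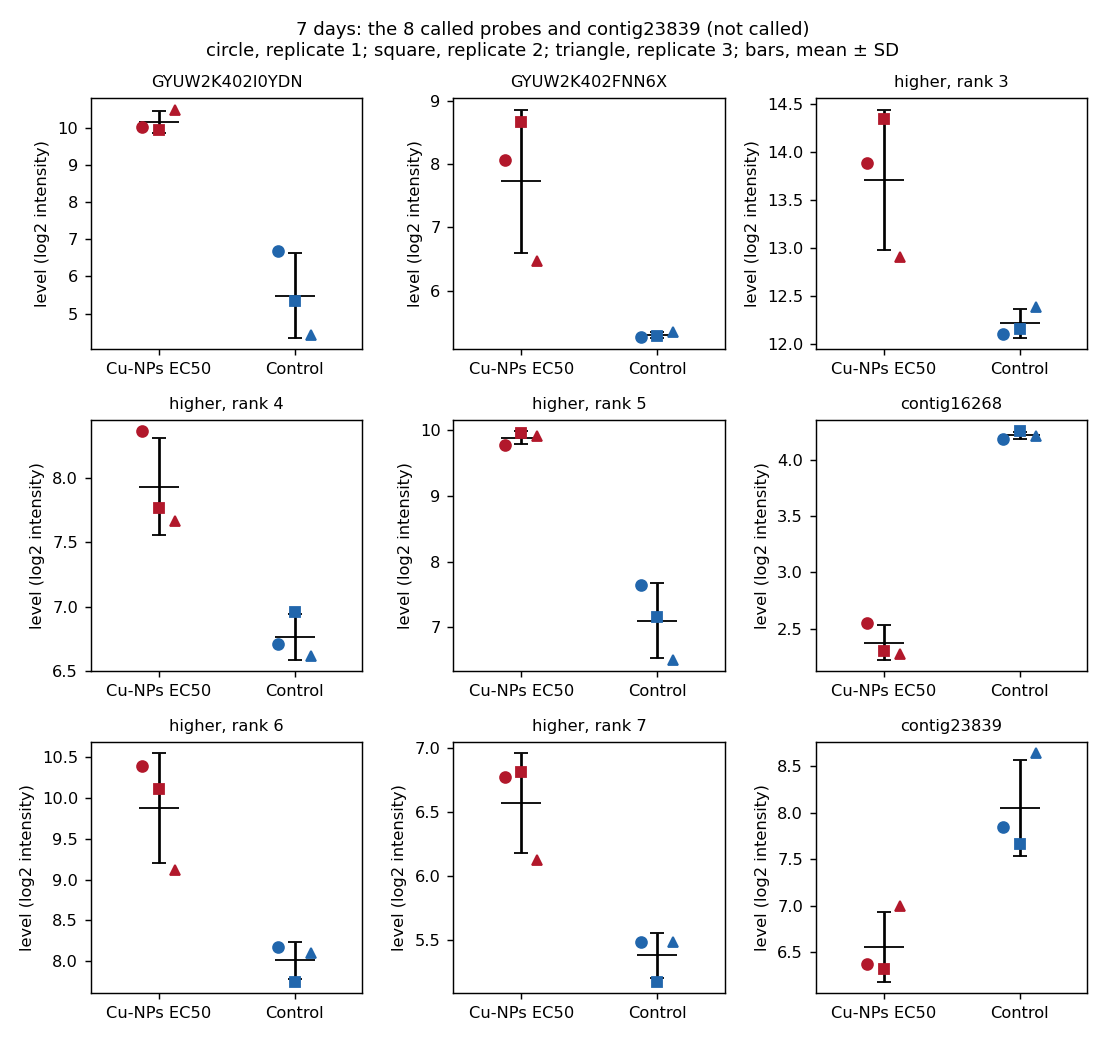
Level (log2 intensity) of the 8 called genes and of contig23839 in each of the 3 Cu-NPs EC50 arrays (red, left) and the 3 Control arrays (blue, right) at 7 days, with the mean and SD as bars. In none of the 9 panels do the groups overlap, and in several the third exposed pool (triangle) is the nearest to the controls.

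The slide and the scan day held both groups in part, which allowed comparisons within them. Since the groups did not overlap in any of these 9 genes, the sign within a slide, a scan day or a scan session was fixed, and only the sizes are given. For GYUW2K402I0YDN the difference was 3.34 between the 2 arrays that shared a slide, 3.57 on the first scan day and 5.06 on the second. The exposed pool that was not scanned late, replicate 3, differed from the Control mean by 1.17 for GYUW2K402FNN6X, against 2.43 over all pools, and by -1.94 for contig16268. Without the arrays scanned late, which left this pool alone, limma called 0 genes, with 420 at an unadjusted p-value under 0.05.

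The effect of the same nanoparticle concentration was next compared between days, with the arrays at 3 days set against their own controls. At 3 days 3530 genes were called (18.1%), 2184 higher (11.2%) and 1346 lower (6.9%). Of the 7 genes that rose at 7 days, 5 had also been called higher at 3 days. GYUW2K402I0YDN had a log2 change of 2.86 at 3 days (adjusted p = 0.0062 by limma) and GYUW2K402FNN6X of 0.75 (adjusted p = 0.21). Over all genes the log2 changes at 7 days and at 3 days had a Pearson correlation of 0.405 and a Spearman correlation of 0.317, a description across 19499 genes that are not independent. The sign was the same on both days in 11751 of all genes (60.3%). Among the 1346 genes lower at 3 days, 1185 (88.0%) were also lower at 7 days, with a median change of 0.49 log2 downwards. The pools differed in this, with median differences from Control of -0.69, -0.84 and 0.01 in Cu-NPs EC50 replicates 1, 2 and 3. The Control arrays, each set against the other 2, gave -0.22, -0.19 and 0.49. Among the 2184 genes higher at 3 days, 1297 (59.4%) were higher at 7 days, with a median of 0.08. Over all 19499 genes, 8990 were higher and 10509 lower at 7 days.

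**Figure D3:**
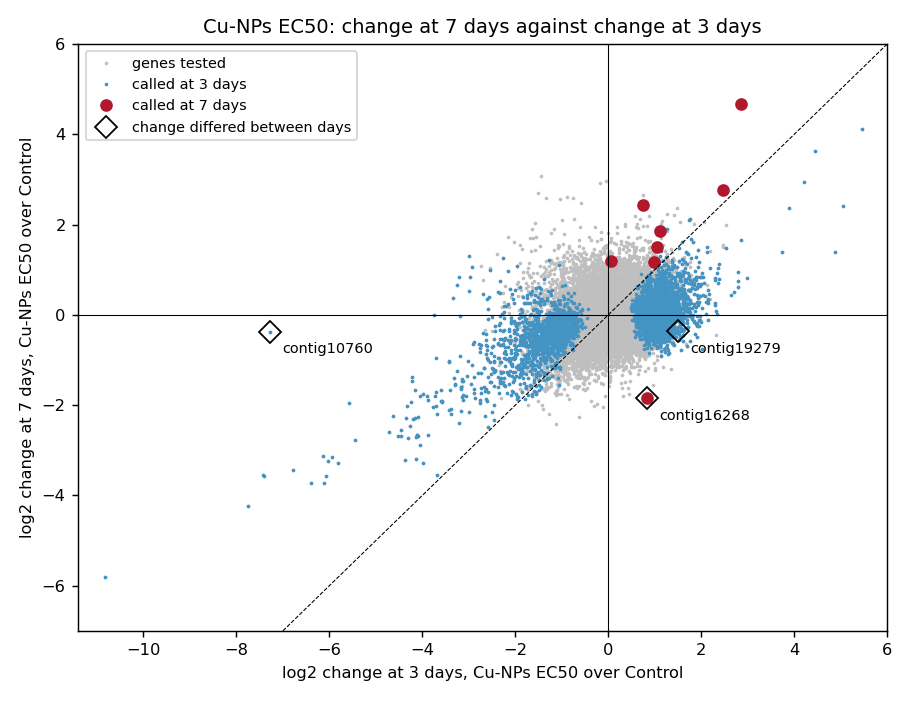
Log2 change of Cu-NPs EC50 over Control at 7 days (vertical axis) against that at 3 days (horizontal axis) for 19499 genes. Blue points are the 3530 genes called at 3 days, red points the 8 called at 7 days, and diamonds the 3 genes whose change differed between the days. The dashed line marks equal changes, and most of the genes with a log2 change under -3 at 3 days (82 of 86) lie below zero at 7 days.

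The largest changes of the earlier day returned at 7 days in some pools only. At 3 days 86 genes had been called lower with a log2 change under -3 and 7 genes higher with one over 3, a limit set after the values were seen. At 7 days the median difference of the 86 genes from the Control mean was -2.43 in Cu-NPs EC50 replicate 1, -3.41 in replicate 2 and -0.06 in replicate 3. The Control arrays, each set against the mean of the other 2, gave 0.38, -0.84 and 0.66. Replicates 1 and 2 thus lay below the controls at the median, while replicate 3 lay among them. The sizes are not exact, since 74 of the 86 genes were well above background in replicate 1 and 60 in replicate 2, against 86 in replicate 3, and after normexp background correction the medians were -1.33 in replicate 1 and -1.69 in replicate 2. The levels ran in the order replicate 2, replicate 1, replicate 3 from low to high in 69 of the 86 genes, against 4405 of all 19499. Replicates 1 and 2 were both below every control array in 77 of the 86, against 3887 of all genes, and replicate 3 was within the range of the controls in 69, against 11939 of all genes. The median SD among the exposed pools was 1.94 log2 for these genes, against 0.74 among the Control pools, whereas over all genes it was 0.39 in Cu-NPs EC50 and 0.43 in Control.

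None of the 86 genes passed the adjusted test at 7 days (smallest adjusted p = 0.17, limma), and 69 had an unadjusted p-value under 0.05, as did 1793 of all 19499 genes. GYUW2K401EIO4R, the gene with the largest decrease at 3 days, was at 11.46, 5.05 and 16.76 in the Cu-NPs EC50 pools, against 16.27, 16.52 and 17.91 in the Control pools. Thus the second exposed pool was 3687-fold and the first 43.5-fold below the Control mean, and the third was not outside the range of the controls. Conversely, GYUW2K402HZ4GY, which had risen most at 3 days, was at 8.67, 15.72 and 6.49 in the Cu-NPs EC50 pools, against 5.82, 5.90 and 6.79 in the Control pools. Replicate 2 was again the most changed pool and replicate 3 was within the controls. Over the 7 genes higher at 3 days the median difference was 2.50 in replicate 1, 4.14 in replicate 2 and 0.42 in replicate 3, against -0.01, -0.41 and 0.94 in the Control arrays. Both genes were named for their change at 3 days after the values had been seen.

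**Figure D4:**
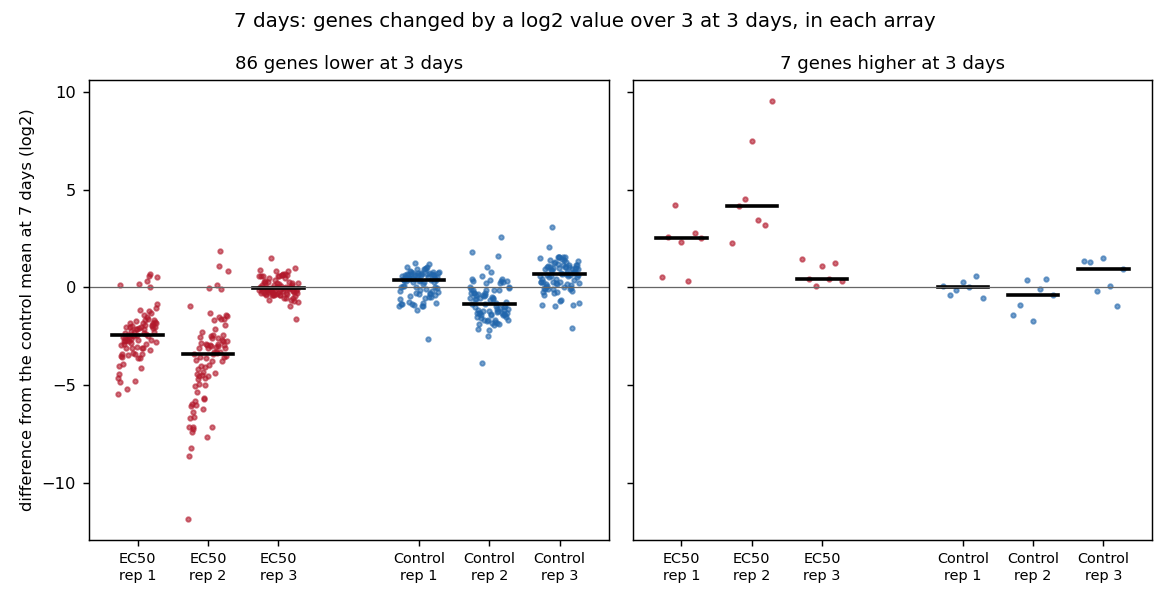
Difference from the Control mean at 7 days (log2) of the 86 genes lower (left) and the 7 genes higher (right) by a log2 value over 3 at 3 days, in each Cu-NPs EC50 array (red) and each Control array (blue, set against the other 2). Points are genes and bars medians, and the median of the 86 genes is -3.41 in exposed replicate 2 and -0.06 in exposed replicate 3.

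The arrays of the whole series were ranked by the median level of the 86 genes. Cu-NPs EC50 replicate 2 at 7 days was the lowest of the 54 (3.99), below each of the 3 arrays at 3 days from which the genes had been chosen (4.12, 4.17 and 4.71). Replicate 1 came 7th (5.28), and replicate 3 was at 7.48, against 7.77, 6.82 and 7.99 in the Control arrays at 7 days. The ranking moved with the scan session. All 8 arrays scanned later than the first scan of their slide, none of them a control, were among the lowest 11. Their medians were 3.99 to 6.15, against 4.17 to 9.01 in the 46 other arrays. Among the 8 was Cu-NPs EC50 replicate 1 at 3 days, which had served to choose the genes, so that its low rank was set in advance. Of the 3 other arrays among the lowest 11, 2 were Cu-NPs EC50 replicates 2 and 3 at 3 days. The genes were then chosen anew at 3 days without the array scanned late, which gave 102 genes, 81 of them shared with the 86. Their medians at 7 days were -2.26, -3.05 and -0.04 in the Cu-NPs EC50 arrays, against 0.38, -0.73 and 0.63 in the Control arrays. Since both low pools at 7 days were scanned late and the third was not, the pool and the scan session cannot be told apart within this group.

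The reproducibility over all genes was described with the pairs of equal replicate number, which share no array. This pairing is assumed, since the labels do not say what a number shares. The log2 differences of pairs 1 and 2 had a correlation of 0.41 across genes, those of pairs 1 and 3 of 0.30, and those of pairs 2 and 3 of -0.07. For Cu-NPs EC50 at 3 days the corresponding correlations were 0.39, 0.40 and 0.67. At 7 days the 3 pairs had the same sign in 35.4% of genes, and at 3 days in 50.7%.

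The change differed between the days for 3 genes (0.0154%) by the test of the interaction itself, 1 upwards (0.00513%) and 2 downwards (0.0103%). With the replicate number as a block there were 5, the 3 included, with a term for the later scans 8, and without the arrays scanned late 513, each again with the 3. The count was 1 with the scan day, the 75th percentile, no filter or the deposited table, and 0 with the slide as a fixed block (1430 at an unadjusted p-value under 0.05 by limma). The 3 genes were named after the values had been seen. The largest difference was that of contig10760, with 6.91 ± 0.85 log2 (limma, adjusted p = 9.0e-06). At 3 days its level was 4.39, 5.03 and 6.11 in the Cu-NPs EC50 pools, against 12.69, 12.82 and 11.85 in the Control pools, a decrease of 155-fold. At 7 days it was 12.92, 11.84 and 12.52 in the Cu-NPs EC50 pools, against 12.22, 14.00 and 12.19 in the Control pools, with overlap and a log2 change of -0.37 (adjusted p = 0.89). Thus the 3 arrays at 3 days were the lowest of all, and Cu-NPs EC50 at 7 days ranked 9th of 18 groups. In none of the treatments other than Cu-NPs EC50 at 3 days was the gene called, the group means lying between 11.06 and 13.50. Unlike the 86 genes as a whole, contig10760 differed from the Control mean at 7 days by under 1 log2 in every exposed pool (0.12, -0.96 and -0.28). Exposed replicate 2 was nevertheless below every control array. The gene was not alone among the 86 in small differences, since contig18518 differed from the Control mean by 0.03, -0.09 and -0.01.

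**Figure D5:**
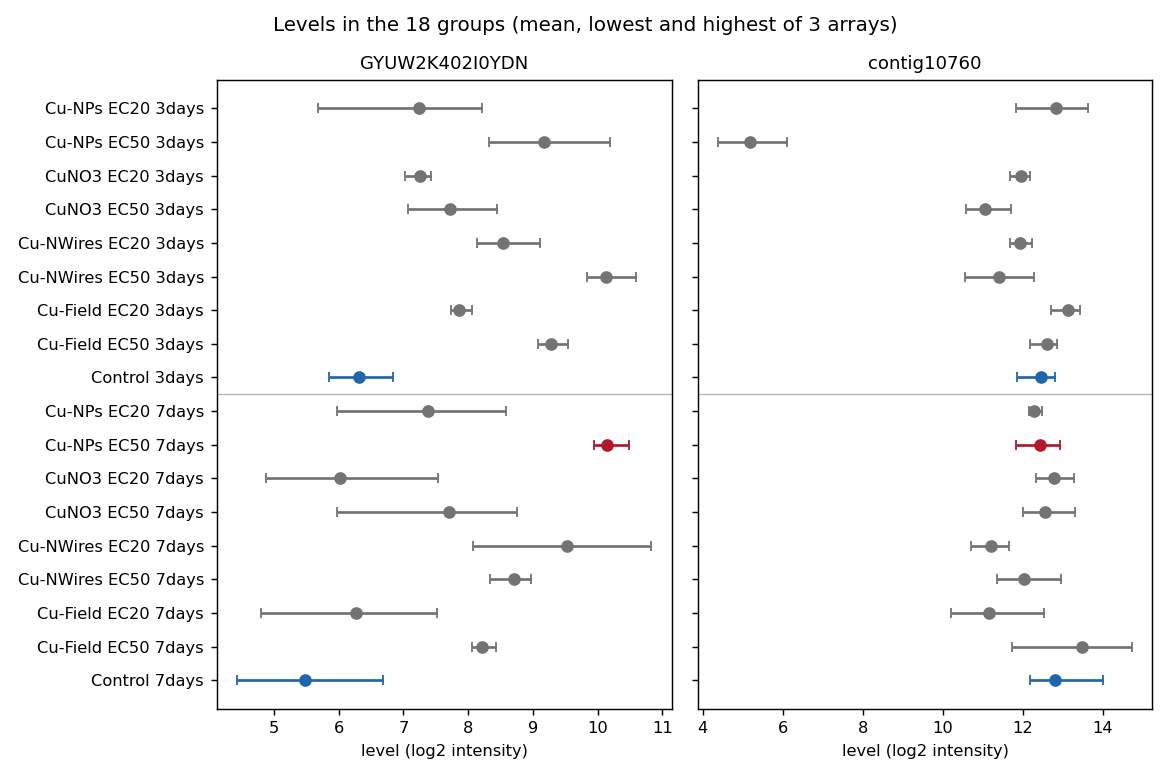
Level (log2 intensity) of GYUW2K402I0YDN (left) and contig10760 (right) in the 18 groups, 3 days above and 7 days below the line, with Cu-NPs EC50 at 7 days in red and the Control of each day in blue. Points are means and bars span the lowest to the highest of 3 arrays. Cu-NPs EC50 at 7 days is the highest group on the left at 10.15 and lies at 12.43 on the right, where Cu-NPs EC50 at 3 days is at 5.17.

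The other 2 genes of the interaction were near the threshold, both with an adjusted p-value of 0.0499. For contig19279 the level was 9.68, 10.20 and 10.68 in Cu-NPs EC50 at 3 days, against 8.68, 8.63 and 8.80 in the Control at 3 days. At 7 days it was 9.42, 9.45 and 9.37 in Cu-NPs EC50, against 9.90, 9.79 and 9.64 in Control. The increase of the early day (log2 change 1.49, adjusted p = 0.00037 by limma) was thus not present later, when the mean of the Control was higher than at 3 days. For contig16268 the change was -1.84 at 7 days and 0.83 at 3 days (adjusted p = 0.11), and at 3 days no Control array was well above background, so that the difference between the days rests on bounds.

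The lower concentration of the same particles, Cu-NPs EC20 at 7 days, differed from Cu-NPs EC50 in 745 genes (3.82%). Of these, 320 were higher (1.64%) and 425 lower (2.18%) at the EC50. Between Cu-NPs EC20 and Control at 7 days limma called 0 genes. In 722 of the 745 genes the Control mean lay between the means of the EC20 and the EC50, against 11875 of all 19499. The mean of CuNO3 EC50 at 7 days lay between them in 668 of the 745, against 8844 of all genes. The 745 genes were chosen for a wide gap between the EC20 and the EC50, into which another group falls readily. These counts therefore cannot show whether the concentrations moved in opposite directions from Control. The Control mean was nearer to the EC50 in 245 of the 745. The median size of the difference in these genes was 1.67 log2, against 0.48 over all genes. Of the 8 genes called against Control, 5 were called here too, among them GYUW2K402I0YDN, at 10.03, 9.94 and 10.48 with the EC50 and 8.58, 7.58 and 5.98 with the EC20 (log2 change 2.77, adjusted p = 0.044 by limma). GYUW2K402FNN6X was at 8.06, 8.66 and 6.47 with the EC50 and at 5.69, 6.17 and 5.60 with the EC20 (log2 change 1.91, adjusted p = 0.039). The 2 comparisons share the Cu-NPs EC50 arrays. The balance of directions turned with the scaling, with 4013 higher and 292 lower after SVCD normalization, 14877 and 65 with the spike-ins, and 187 and 16 with no normalization. The count of 745 was 3 with the scan day in the model, 0 with a term for the later scans, 4 after normexp background correction, 1 without Cu-NPs EC20 replicate 1 or 3 or without Cu-NPs EC50 replicate 1, 0 without Cu-NPs EC50 replicate 2 and 4009 without Cu-NPs EC50 replicate 3.

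The comparison with the salt asks whether the particles differ from dissolved copper at an equal effect on reproduction. In the paper the EC50 of the particles is a higher concentration of copper than that of the salt. The form, the total copper and the nitrate of the salt therefore cannot be told apart here. Between Cu-NPs EC50 and CuNO3 EC50 at 7 days 0 genes were called by limma (0%, smallest adjusted p = 0.12), while 1085 had an unadjusted p-value under 0.05. By the methods' t-test 870 genes had an unadjusted p-value under 0.05 and 0 passed the adjustment. GYUW2K402I0YDN was at 10.03, 9.94 and 10.48 with the particles, against 5.97, 8.37 and 8.76 with the salt. The lowest pool with particles was above the highest with salt, and the difference was 2.45 ± 0.72 log2 (adjusted p = 0.46 by limma). The second gene, GYUW2K402FNN6X, was at 8.06, 8.66 and 6.47 with the particles and at 6.38, 6.16 and 5.88 with the salt, a difference of 1.59 ± 0.42 (adjusted p = 0.44). This comparison shares the Cu-NPs EC50 arrays with that against Control. Without Cu-NPs EC50 replicate 3, 100 genes were called, and with a term for the later scans 5.

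Over all probes, tested or not, some crossed the detection limit between groups. Of the 43750 probes, 39 (0.0891%) were well above background on all 3 Cu-NPs EC50 arrays and on no Control array, and 49 (0.112%) on all 3 Control arrays and no Cu-NPs EC50 array. In the 7 other treatments at 7 days, set against the same Control, these numbers were 7 to 52 and 29 to 166.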

How the data were processed

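Total RNA of whole-body pools of 20 adults was labelled with Cy3 and hybridized to a custom Agilent array, 1 array per pool, and groups were taken from the sample titles. Levels were taken from the processed signal of each spot, an intensity that the authors deposited with the scanner output. According to its header it came from Agilent Feature Extraction 10.7.3.1, which had subtracted the background, with no normalization between arrays. The processed values deposited by the authors as a single matrix held the same intensity values rounded (ratio 0.995 to 1.005) and served as an alternative. Of the columns of the tables, 0 belonged to another series.

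Non-control probes flagged as positive and significant on all 54 arrays were kept, with no saturated spots among them. Their log2 signals were centred on the median of each array (Median normalization). Each contrast was tested with limma in a fit to the 54 arrays with a mean for each of the 18 groups, which shared the spread of a gene, and Benjamini-Hochberg adjustment was applied over all genes of a comparison. R 4.3.3, limma 3.58.1, data.table version 1.17.8, Python 3.11.15, pandas 2.3.3 and matplotlib 3.10.9 were used. The scripts were tested on simulated data. The p-values of limma thus rest on the spread within all 18 groups, and not only on that between the 3 pools of the groups compared. The number of arrays limits the precision. The arrays lay on 14 slides scanned on 2 days.

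The genes named for a comparison with Control were the first 2 in each direction by the absolute moderated statistic, whether called or not. The members, the rule and the tests were chosen with earlier results of these data known. Arrays of equal replicate number in Cu-NPs EC50 and Control deviated together from their group means (correlations over genes of 0.44, 0.21 and 0.45). For Cu-NPs EC20 (0.0022, -0.10 and 0.31) and CuNO3 EC50 (-0.43, 0.22 and -0.23) this did not hold for every number. Arrays of unequal number were not set beside these, and the labels do not say what a number shares. The pairing by number is therefore an assumption, and it was not checked at 3 days. Alternatives were SVCD normalization (written in R after the study's published scripts, with 1% of variances trimmed and a test level of 0.001), Quantile normalization, scaling to the 75th percentile or to 7 of the 10 spike-in probes, no normalization, normexp background correction with an offset of 50, other probe filters, the methods' t-test, blocks for the replicate, slide and scan day, the deposited table, and leaving out each array. The normexp correction used the median signal of a spot, since its mean was not available. No lists of genes by function were examined, since the files pair no probe with a gene, and no cell type markers were examined.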

Additional observations from a re-analysis of the deposited data

Results flagged for a closer look

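The change from Control differed between the days for 3 genes by the interaction test of limma. The effect of Cu-NPs EC50 at 7 days minus that at 3 days was 6.91 log2 for contig10760, -2.67 for contig16268 and -1.85 for contig19279. For contig10760 the difference stayed called under 30 of 31 alternative settings, the exception being the slide as a fixed block (adjusted p = 0.088), with values of 5.23 to 7.50. For contig16268 it was called under 9 of 30 settings and for contig19279 under 8 of 31, and the first of these rests on arrays at the background.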

How the results depend on the processing

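The 8 genes called and contig23839 kept the sign of their change under every setting run. GYUW2K402I0YDN was called under 23 of 27 settings, GYUW2K402FNN6X under 15 of 26, contig11921 under 16 of 27, and the other 5 genes under 9 to 13, with contig16268 the lowest. The gene that was not called, contig23839, was called under 2. Weak genes limit the comparison, since the median standard error fell to 0.29 log2 among the brightest genes, against 0.45 among the dimmest, in 4 equal classes of level. The causes of the changes below were not tested.

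For Cu-NPs EC50 against Control (8 calls, 7 higher) the count was 47 (46 higher) after SVCD normalization, 9 (8 higher) with SVCD started from the Median offsets, 23 (21 higher) after Quantile normalization, 4 (all higher) with the 75th percentile, 3 with the spike-ins, 2 with no normalization and 2 after normexp. It was 5 with no filter and 3 with the filter on the groups compared only. It was 0 with only these groups in the fit, by the methods' t-test and with the slide as a fixed block, where 928, 792 and 869 genes had an unadjusted p-value under 0.05. The next 3 alternatives, and the scalings of the 86 genes, were chosen after seeing the data. The count was 29 with replicate 3 of both groups left out, 4 with a term for the later scans, and 0 (420 unadjusted) without the arrays scanned late, which left 1 exposed array, assumed to vary like the other groups. Scaling to the spike-ins moved the median log2 change of all genes to 0.76. The 86 genes had medians of -1.10, -2.20 and -0.18 in the 3 exposed arrays with the spike-ins and of -1.33, -1.69 and -0.00013 after normexp.

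For Cu-NPs EC50 against Cu-NPs EC20 (745 calls, 320 higher) the count was 4305 (4013 higher) after SVCD normalization, 14942 (14877 higher) with the spike-ins and 203 (187 higher) with no normalization. SVCD started from the Median offsets gave 1008, of which 323 were higher. It was 63 with no filter, 4 with the filter on the groups compared, 4 after normexp, 6 with the slide as a random block, 3 with the scan day, and 1 without the arrays scanned late. It was 0 by limma with only these groups in the fit, with the slide as a fixed block and with the later scans, and 0 by the methods' t-test, where 5217, 1165, 2768 and 3754 genes had an unadjusted p-value under 0.05.

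Against CuNO3 EC50 (0 calls) it was 5 after SVCD started from the Median offsets, 5 with the later scans, and 1 after Quantile normalization, with the stricter filter and with no filter. For the interaction (3 calls, 1 higher) it was 1861 (28 higher) after SVCD started from the Median offsets, 2 (both higher) after SVCD otherwise, 5 after Quantile normalization, 6 with the slide as a random block, 8 with the later scans and 513 (266 higher) without the arrays scanned late. It was 1 with the 75th percentile, the spike-ins, no normalization, no filter, the filter on the groups compared, the scan day and the deposited table, and 0 (1430 unadjusted) with the slide as a fixed block.

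With the replicate number as a block the counts were 9 against Control, the 8 included, 831 against Cu-NPs EC20, 0 against CuNO3 EC50 (1070 unadjusted) and 5 for the interaction, and the pairing changed no call of the 8. Leaving out 1 array at a time gave 1 to 264 calls against Control, 0 to 4009 against Cu-NPs EC20, 0 to 100 against CuNO3 EC50 and 1 to 552 for the interaction. The highest counts came without Cu-NPs EC50 replicate 3 at 7 days and, for the interaction, without Cu-NPs EC50 replicate 1 at 3 days, where the other arrays gave 1 to 4.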
